A study of Rattus norvegicus with 2 samples.

Results

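The small leucine-rich proteoglycans (SLRPs) are secreted matrix proteins built around a row of leucine-rich repeats. Most carry sulfated sugar chains, bind collagen fibrils and help to set how thick the fibrils grow and how they are spaced, and some also bind growth factors such as TGF-beta. Class I proteins such as decorin and biglycan carry chondroitin or dermatan sulfate, and class II members can carry keratan sulfate or sulfated tyrosines. Dcn, Bgn and Lum are best known from dermis and other soft connective tissue, while Fmod, Prelp, Omd, Epyc and Ogn are best known from cartilage, bone or tendon. Kera is best known from the cornea and was put in neither group.

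The genes were taken by name from the array annotation. The 10 names searched stand for 9 genes, because Dspg3 is an old name of Epyc, and all 9 were on the array with 10 probes in all, set against 14782 detected genes with a name. The E19 group was 1 pool of skin RNA from 3 Sprague Dawley rat fetus samples at day 18.5, and the E16 group was 1 pool from 4 samples at day 16.5, and the labels name no treatment. Both pools were hybridised together to 2 Agilent arrays. E19 carried the dye Cy5 on the first array and Cy3 on the second, and values of the 2 arrays are given in that order. With 1 pool a stage no difference between the stages can be tested, the SD given is that of the 2 arrays, and it holds nothing of the spread between animals.

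In each channel 71.5% to 74.3% of non-control spots were well above background, which is Feature Extraction's own call. All 9 genes passed it in both pools on both arrays, so no member was lost to the filter on low values, and no member spot was saturated or flagged as an outlier. Markers of skin were present: 6 of 7 epidermal markers were on the array and all 6 were detected, as were 9 of 9 dermal fibroblast markers. A gene is called higher in a pool where both arrays put it there by a factor of 2 or more.

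The family did not move as 1 group. Of the 9 genes, 1 was called higher in E19, namely Dcn, and 3 were called higher in E16, namely Fmod, Epyc and Kera. Over all detected genes the same rule called 4.15% towards E19 and 3.75% towards E16. These are 614 and 554 genes, and with spike-in RNAs set to 0 the balance turned round, to 376 genes towards E19 and 801 towards E16. The other 5 were not called. Over the 9 genes the mean log2 ratios of E19 over E16 spanned 3.93 units, between 1.36 for Dcn and -2.57 for Fmod, and the median of the 9 was -0.22, against 0.02 for all detected genes. On both arrays 3 genes lay above 0 and 5 below 0, and Bgn changed sign between the arrays. In bulk RNA of this kind, fewer cells of a type and less RNA per cell cannot be told apart.

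**Figure D1:**
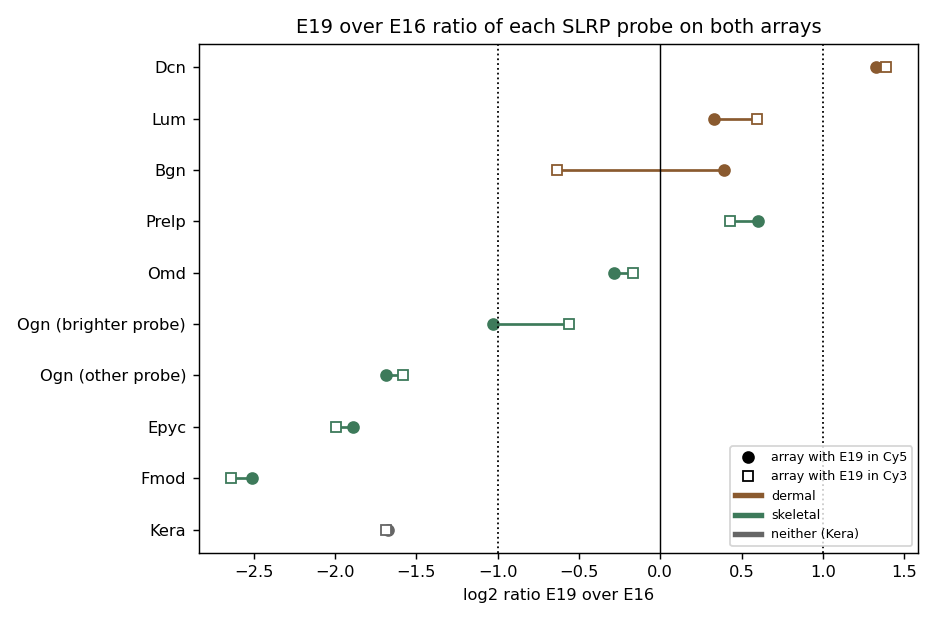
Log2 ratio of E19 over E16 for each of the 10 SLRP probes on the first array (E19 in Cy5, filled circles) and the second array (E19 in Cy3, open squares), coloured by tissue group, with dotted lines at 2-fold. Dcn lies beyond 2-fold towards E19 on both arrays, Fmod, Epyc, Kera and 1 of the 2 Ogn probes lie beyond 2-fold towards E16, and the 2 arrays fall on opposite sides of 0 for Bgn.

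Dcn encodes decorin, the main dermatan sulfate proteoglycan of the dermis, whose loss makes mouse skin fragile. Its normalised log2 level was 16.24 and 16.54 in the E19 pool, against 14.91 and 15.16 in the E16 pool. Both E19 values lay above both E16 values. The log2 ratio was 1.33 and 1.39 on the 2 arrays (mean 1.36 ± 0.04), which is 2.56-fold higher in E19 and the 97.6 percentile of all detected genes. The call was lost with median centring in place of loess, where the arrays read 2.16 and 0.53. With spike-in RNAs set to 0 the mean was 1.14 and the call was kept.

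Lum encodes lumican, a keratan sulfate proteoglycan that binds collagen in dermis and cornea. The log2 level of Lum was 15.06 and 15.26 in the E19 pool, against 14.72 and 14.67 in the E16 pool. The pools did not overlap, but the log2 ratio of 0.33 and 0.60 (mean 0.46 ± 0.19) was under 2-fold on both arrays. With median centring its arrays fell on opposite sides of 0, at 1.04 and -0.15.

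Bgn encodes biglycan, a class I relative of decorin found in skin, bone and vessel walls. Its log2 level was 16.66 and 16.01 in the E19 pool, against 16.27 and 16.64 in the E16 pool, so the pools overlapped and the higher value on each array was that of the pool in Cy5. The log2 ratio was 0.39 on the first array and -0.63 on the second (mean -0.12 ± 0.73), a spread far above the median SD of 0.11 over all detected genes. Bgn was among 603 genes that were brighter than Bgn, as bright, or at most 1 log2 unit dimmer, with no upper limit. In 402 of these 603 the ratio was higher on the first array, where E19 carried Cy5, and over the 603 it was higher there by a median of 0.22, against a median near 0 over all genes. The part of the dye in the Bgn values was not tested, and no direction can be given for Bgn from these arrays.

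Fmod encodes fibromodulin, a keratan sulfate proteoglycan of cartilage and tendon that guides collagen fibril growth. In the E19 pool its log2 level was 10.79 and 10.60, against 13.30 and 13.23 in the E16 pool. The E19 values lay far below the E16 values on both arrays. The log2 ratio was -2.51 and -2.64 (mean -2.57 ± 0.09), or 5.95-fold higher in E16, at the 0.352 percentile of all detected genes.

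Epyc encodes epiphycan, a class III proteoglycan of growth plate cartilage. The log2 level of Epyc was 7.37 and 7.38 in the E19 pool, against 9.26 and 9.37 in the E16 pool. The log2 ratio was -1.89 and -2.00 (mean -1.94 ± 0.08), or 3.84-fold higher in E16. Its spot was dim at E19, with 3.85 and 2.27 times the local background, against 10.5 and 19.6 times at E16. With Feature Extraction's processed signals the mean was -2.71.

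Kera encodes keratocan, a keratan sulfate proteoglycan of the corneal stroma. Kera had log2 levels of 7.50 and 7.44 in the E19 pool, against 9.18 and 9.13 in the E16 pool. The log2 ratio was -1.68 and -1.69 (mean -1.68 ± 0.01), or 3.21-fold higher in E16. It too was dim at E19, at 3.61 and 2.42 times the local background, and read -2.30 with processed signals. Of 4 corneal markers, 3 were on the array, and all 3 were detected and went in both directions. The corneal keratin Krt12 was called higher in E19 (1.08 ± 0.06). The eye and brain transcription factor Pax6 was called higher in E16 (-2.12 ± 0.09), and Aldh3a1 was not called (0.22 ± 0.36).

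Ogn encodes osteoglycin, also called mimecan, a class III proteoglycan first isolated from bone and present in many connective tissues. It is the only member with more than 1 probe, and the 2 probes differed. The brighter probe had log2 levels of 13.49 and 13.88 in the E19 pool, against 14.52 and 14.44 in the E16 pool, and log2 ratios of -1.03 and -0.56 (mean -0.79 ± 0.33). The other probe had log2 levels of 12.87 and 12.85 in the E19 pool, against 14.55 and 14.43 in the E16 pool, and log2 ratios of -1.68 and -1.58 (mean -1.63 ± 0.07). Both probes were lower in E19 on both arrays, but only the second passed the size rule. The probes were about equally bright at E16, so the choice of the brighter one depended on its E19 signal and thus on the ratio.

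The difference between the Ogn probes was 0.84 log2 units. Both carry the same RefSeq accession in the array annotation. The files place the brighter probe on chromosome 17 from 20987215 to 20987274 and the other from 20988620 to 20988679, both on the minus strand, in a genome build that the files do not name. The brighter probe therefore lies 1405 bases nearer the 3′ end of the gene. The authors' deposited table holds 1 value for both probes, a log2 ratio of -1.21, or 2.32-fold higher in E16.

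Omd encodes osteomodulin, a keratan sulfate proteoglycan of bone. Its log2 level was 7.73 and 7.82 in the E19 pool, against 8.01 and 7.99 in the E16 pool, and its ratio of -0.28 and -0.17 (mean -0.22 ± 0.08) was well within 2-fold. Prelp encodes a class II protein of cartilage and other connective tissue that binds collagen and the heparan sulfate of basement membranes. Prelp had log2 levels of 9.63 and 9.58 in the E19 pool, against 9.03 and 9.15 in the E16 pool, with ratios of 0.60 and 0.43 (mean 0.52 ± 0.12). Prelp was thus the one skeletal member that was higher in E19 on both arrays, and it was not called.

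**Figure D2:**
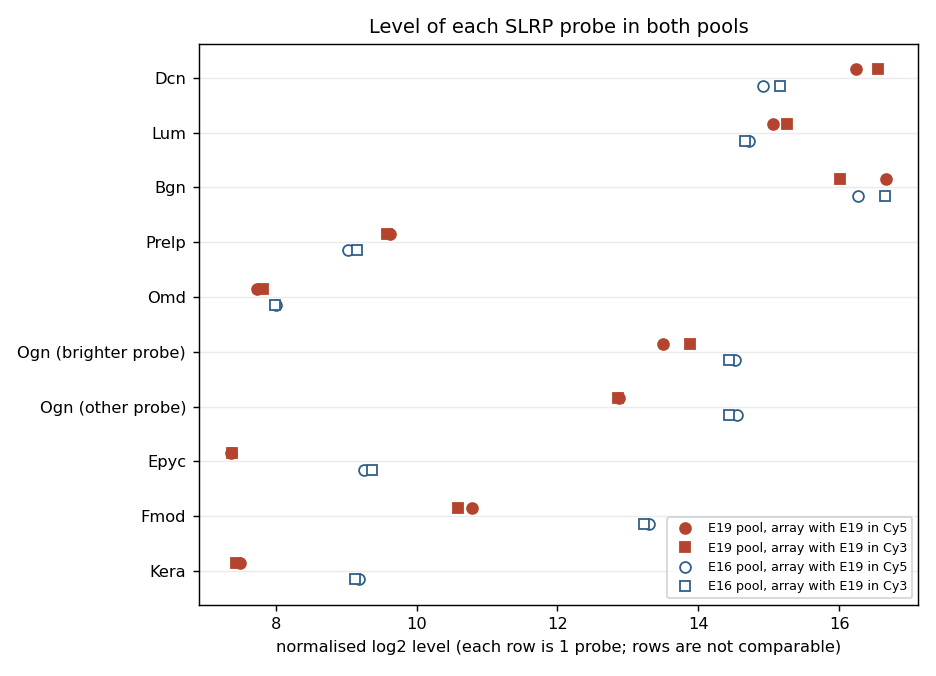
Normalised log2 level of each SLRP probe in the E19 pool (filled) and the E16 pool (open), with circles for the first array and squares for the second. The E19 symbols lie right of the E16 symbols for Dcn, Lum and Prelp, left of them for Fmod, Epyc, Kera, Omd and both Ogn probes, and the pools overlap for Bgn. Rows are different probes and cannot be compared in level.

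Skeletal members were lower than dermal members in E19 over E16. The median log2 ratio was -1.03 and -0.56 over the 5 skeletal genes on the 2 arrays, against 0.39 and 0.60 over the 3 dermal genes. The difference of the medians was -1.42 and -1.16 (-1.26 from the mean ratios). The 2 groups overlapped, since Prelp (0.52) lay above Lum (0.46) and Bgn (-0.12). The dermal median is the value of Bgn on the first array, and of Lum on the second and in the mean ratios. No direction can be given for Bgn, so the difference on the first array rests on an unsteady value. The skeletal median is the value of Ogn: with its other probe it was -1.63 and the difference -2.10, a setting added after the values were seen. With Kera counted as skeletal the difference was -1.70.

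Counted by the rule, 2 of 5 skeletal genes were called higher in E16 and 0 in E19, while 0 of 3 dermal genes were called higher in E16 and 1 in E19. Over all detected genes the shares were 4.15% towards E19 and 3.75% towards E16. A count of 0 in 3 genes is near those shares. With so few genes the groups are described and not tested. By protein class, both class III genes (Epyc and Ogn) were below 0 on both arrays, 3 of the 5 class II genes were below 0 on both arrays (Fmod and Kera, both called higher in E16, and Omd, not called) with Lum and Prelp above 0, and class I held Dcn and Bgn.

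Marker genes of cartilage moved the same way as Fmod and Epyc. For counts of called markers here and in the other marker lists, the shares over all genes were 4.15% towards E19 and 3.75% towards E16. All 13 cartilage markers were detected, 11 were called higher in E16 and 0 in E19, and their median log2 ratio was -1.85. Their summed level was 16604 and 15091 in the E19 pool, against 57917 and 55828 in the E16 pool. The largest shifts were those of the chondromodulin gene Cnmd (-4.16 ± 0.19), the cartilage collagen genes Col2a1 (-2.69 ± 0.24) and Col9a2 (-2.41 ± 0.20), and Col11a2 (-2.16 ± 0.03). The probes of Col2a1 disagreed, with a mean of -1.38 over all its detected probes. Matn3, one of the 11, was not well above background at E19. For it only a bound of at least 2.46-fold towards E16 can be given. Sox9, the transcription factor that sets cartilage identity, was not called (-0.32 ± 0.15), and neither was Col9a1 (0.43 ± 0.02). These 2 are named after their values were seen, as the markers that were not called.

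Tendon and bone markers were measured beside them. Of 4 tendon markers only 2 were on the array. Both were detected and called higher in E16: tenomodulin, Tnmd (-2.35 ± 0.13), and Thbs4 (-1.01), which was just past 2-fold. Of 7 detected bone markers, 3 were called higher in E16 and 0 in E19, with a median of -0.81, led by the bone sialoprotein gene Ibsp (-3.42 ± 0.37) and the alkaline phosphatase gene Alpl (-1.95 ± 0.10). The third was Dmp1, a gene of bone matrix cells, whose E19 signal was not well above background. For Dmp1 only a bound of at least 2.92-fold towards E16 can be given. The median was the value of Phex, which was not called. The E19 signal of Phex was also not well above background, with a bound of at least 1.75-fold towards E16. The summed level of the bone markers was 74556 and 76419 in the E19 pool, against 52912 and 63577 in the E16 pool, so the sum ran opposite to the median. The sum was mostly Spp1, the osteopontin gene, which alone gave 72016 and 74113 in the E19 pool, against 38638 and 48865 in the E16 pool. Without it the sum was 2540 and 2306 in the E19 pool, against 14275 and 14712 in the E16 pool. Spp1 (0.75 ± 0.21) and the osteoblast regulator gene Runx2 (0.11 ± 0.01) were above 0 on both arrays and the other 5 bone markers below 0, and both genes are named after their values were seen. The part of cartilage, tendon or bone tissue in the SLRP ratios was not tested.

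Dermal fibroblast markers had a median log2 ratio of 0.35, and 0 of 9 were called in either direction. On both arrays 5 of the 9 lay above 0 and 4 below 0. The nearest to 2-fold was Dpt (0.97 ± 0.08), which encodes dermatopontin, a matrix protein that binds decorin. Their summed level was 670938 and 542070 in the E19 pool, against 343946 and 510389 in the E16 pool, so the pools did not overlap, but the gap depended on the array. The E19 sum was mostly Col1a1, Col1a2 and Col3a1, with log2 levels of 17.47, 16.80 and 17.99 there on the first array. These collagen genes are also in the list of collagens that SLRPs bind. The fibrillar collagen gene Col3a1 read 1.73 on the first array and 0.06 on the second, and Col1a2 read 1.15 and 0.30. The matrix protein gene Fbln1 lay below 0 (-0.60 ± 0.23), as did Pdgfra, Lox and Pdgfrb. Dcn, at 1.36, thus lay above each of the 9 fibroblast markers in its mean ratio. Of the other marker lists, adipocyte genes had 4 of 5 called higher in E19 (median 2.18) and epidermal genes 3 of 6 (median 1.63), and skeletal muscle genes had 2 of 7 called in each direction (median 0.03).

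**Figure D3:**
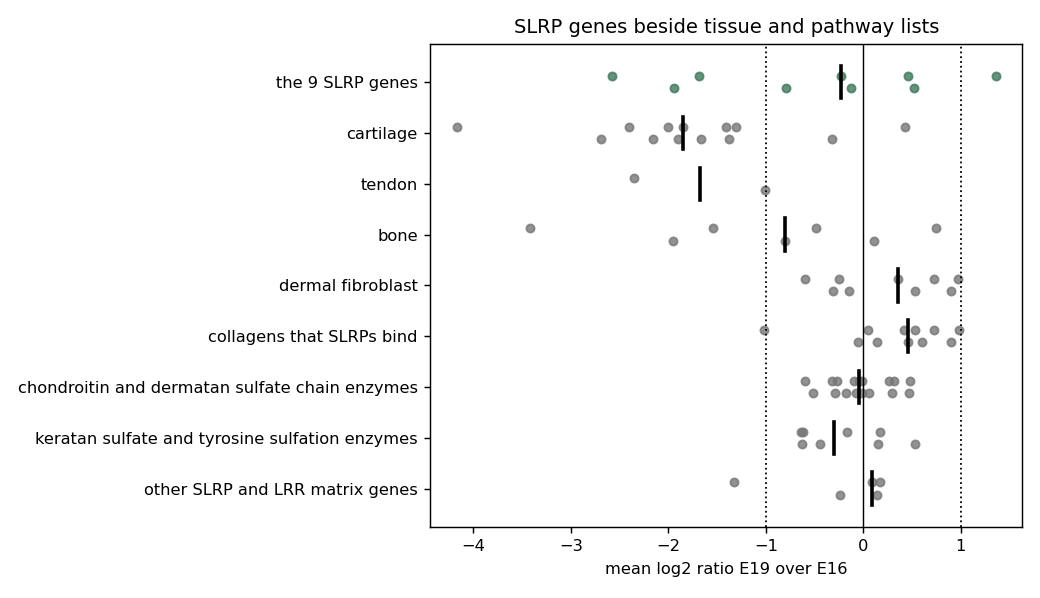
Mean log2 ratio of E19 over E16 for the 9 SLRP genes (top) and for each detected gene of 8 tissue and pathway lists, 1 point a gene, with a black bar at each median and dotted lines at 2-fold. Cartilage (median -1.85) and tendon (-1.68) lie towards E16, dermal fibroblast genes (0.35) lie slightly towards E19, and the SLRP genes spread over both sides.

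Most SLRP genes sit beside each other in the genome. In the order of protein-coding genes in RefSeq's rat assembly GRCr8, Dcn, Lum, Kera and Epyc follow each other on chromosome 7, Prelp and Fmod are adjacent on chromosome 13 with the eye SLRP gene Optc next to Prelp, and Ogn, Omd and Aspn follow each other on chromosome 17. Bgn stands alone on the X chromosome. Along chromosome 7 the mean log2 ratio stepped down gene by gene in that order: 1.36 for Dcn, 0.46 for Lum, -1.68 for Kera and -1.94 for Epyc. The first pair lay towards E19 and the second pair towards E16 on both arrays.

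The step between Lum and Kera was -2.01 and -2.28 on the 2 arrays (mean -2.14 ± 0.19). Of 8205 adjacent gene pairs with both genes detected, 2.88% differed by at least that much in their mean ratio, and the median pair differed by 0.41. Prelp and Fmod differed still more, by -3.11 and -3.07 (mean -3.09 ± 0.03), an 8.51-fold gap that 0.634% of adjacent pairs reached. By contrast Kera and Epyc differed by only -0.26 ± 0.07, and 65.2% of adjacent pairs were at least that far apart. Both spots were dim at E19, and their gap depended on the signal used. With Feature Extraction's processed signals Kera read -2.30 and Epyc -2.71. These shares describe the arrays and test nothing, because the genes were chosen with earlier results known.

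On chromosome 17, Ogn (-0.79), Omd (-0.22) and Aspn (0.18 ± 0.22), which encodes asporin, a class I relative of decorin, were all uncalled with the brighter Ogn probe. Optc was uncalled as well (-0.24 ± 0.23). The genes that flank the 4 on chromosome 7, Btg1 (0.44 ± 0.04) and Ccer1 (0.07 ± 0.07), were both within 2-fold, so the called ratios there belonged to SLRP genes and not to their nearest measured neighbours.

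**Figure D4:**
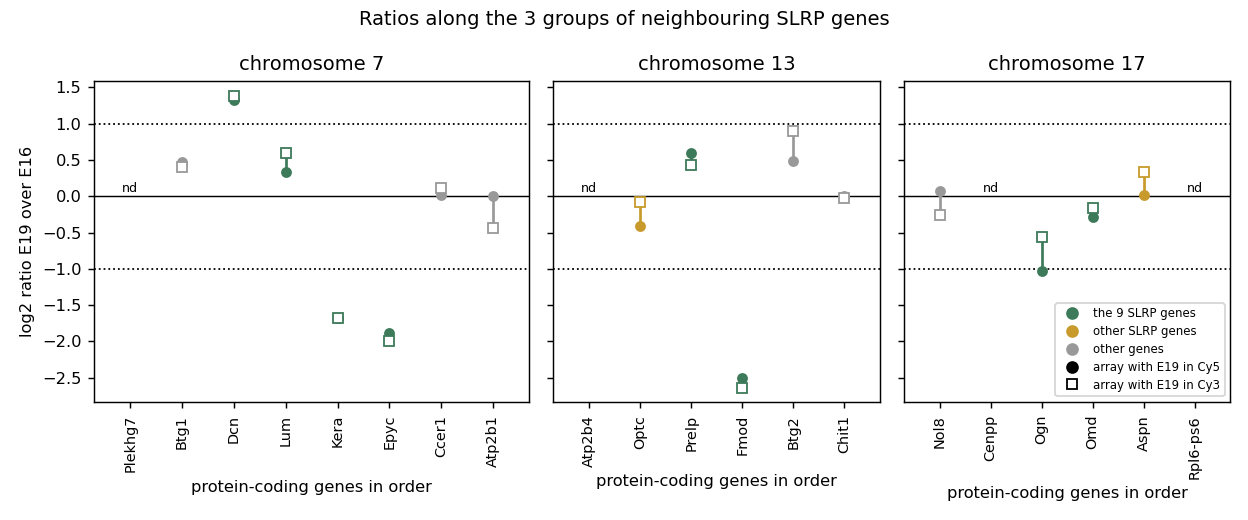
Log2 ratio of E19 over E16 along protein-coding genes in genome order around the 3 groups of neighbouring SLRP genes, with 2 symbols a gene for the 2 arrays, dotted lines at 2-fold and "nd" for genes with no detected probe. Ratios step down through Dcn, Lum, Kera and Epyc on chromosome 7 and drop by 3.09 between the neighbours Prelp and Fmod on chromosome 13. On chromosome 17, Omd, Aspn and the brighter Ogn probe stay near or within 2-fold. The other Ogn probe, with a mean of -1.63, is not drawn.

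RefSeq promoter sequences, from 250 bases before to 50 after the gene start in GRCr8, were matched for 6 of the 9 genes. Those of the 3 genes called higher in E16 are shown with that of Lum, the neighbour of Kera that was not. All lie on the plus strand. Lum is at chr7:34245456-34245755, Kera at chr7:34283850-34284149, Epyc at chr7:34323082-34323381 and Fmod at chr13:48045317-48045616. Capitals mark matches on either strand to a TATA box (TATAAA), a GC box (GGGCGG), an AP-1 site (TGANTCA) or a SOX-type site (ACAANG), motifs picked after the ratios were known.
Lum: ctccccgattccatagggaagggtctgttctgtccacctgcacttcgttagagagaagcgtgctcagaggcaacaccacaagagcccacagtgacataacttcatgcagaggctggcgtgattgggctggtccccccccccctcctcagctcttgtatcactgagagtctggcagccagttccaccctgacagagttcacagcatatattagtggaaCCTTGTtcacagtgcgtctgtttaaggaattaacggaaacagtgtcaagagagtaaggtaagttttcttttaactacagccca
Kera: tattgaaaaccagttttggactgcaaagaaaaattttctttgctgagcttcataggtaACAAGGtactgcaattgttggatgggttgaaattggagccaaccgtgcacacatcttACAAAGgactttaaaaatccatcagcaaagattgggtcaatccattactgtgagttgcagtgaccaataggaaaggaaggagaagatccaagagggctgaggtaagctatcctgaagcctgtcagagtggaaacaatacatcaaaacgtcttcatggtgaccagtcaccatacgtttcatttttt
Epyc: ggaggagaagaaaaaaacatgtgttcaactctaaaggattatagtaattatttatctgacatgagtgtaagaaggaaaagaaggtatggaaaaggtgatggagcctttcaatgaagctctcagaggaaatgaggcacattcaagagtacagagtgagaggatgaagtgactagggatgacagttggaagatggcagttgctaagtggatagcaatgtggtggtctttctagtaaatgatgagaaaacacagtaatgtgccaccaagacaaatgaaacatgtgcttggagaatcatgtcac
Fmod: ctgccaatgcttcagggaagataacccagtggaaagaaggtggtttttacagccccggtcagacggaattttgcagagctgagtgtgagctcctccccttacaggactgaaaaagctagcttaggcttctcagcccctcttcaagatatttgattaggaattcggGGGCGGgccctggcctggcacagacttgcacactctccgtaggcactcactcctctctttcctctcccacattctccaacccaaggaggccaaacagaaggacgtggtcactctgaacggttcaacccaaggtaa

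The 3 promoters of genes higher in E16 shared none of these motifs. The Kera window held 2 SOX-type matches, at positions -192 and -135 from the gene start, and the Lum window held 1 on the other strand. Of all 33469 promoters in the table, 42.1% held that motif. The Fmod window held 1 GC box, which 33.1% of all promoters hold, and the Epyc window held no match to any of the 4. The TATA box (14.2% of all promoters) was matched only in Ogn among the 6 genes, and the AP-1 site (7.33%) in none. Epyc and Kera had GC contents of 39.7% and 40.7%, Lum and Fmod had 50.7% and 52.7%, and the median of all promoters was 51.7%. A match is a description of these letters and not evidence of binding.

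Genes for partners of SLRPs are given beside the shares of all genes, 4.15% towards E19 and 3.75% towards E16. Of 11 collagen genes whose products SLRPs bind, only Col12a1, a collagen of fibril surfaces, was called, higher in E16 (-1.02 ± 0.02), and just past 2-fold. The median was 0.46. Col5a3 (0.98 ± 0.62) and Col3a1 (0.90 ± 1.18) had the next largest means, with arrays far apart. Of the other SLRP and leucine-rich repeat matrix genes, 6 of 9 were on the array and 5 were detected. Only Podnl1, which encodes a podocan-like protein, was called, higher in E16 (-1.32 ± 0.03), and Chad (0.09 ± 0.16), a cartilage protein gene, and Tsku (0.14 ± 0.07) were near 0.

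Genes for making the sugar chains had 0 calls, and in lists of 17 and 8 genes that is near the shares of all genes, 4.15% towards E19 and 3.75% towards E16. Of 17 detected genes for chondroitin and dermatan sulfate chains, 0 were called in either direction, the median was -0.04, and the means lay between -0.59 for the chain-extending synthase Chsy3 and 0.48 for the sulfotransferase Chst7. Of 8 detected genes for keratan sulfate and tyrosine sulfation, 0 were called and the median was -0.30. Among them the keratan chain enzymes B3gnt7 (-0.63 ± 0.08), B4galt4 (-0.63 ± 0.06) and Chst5 (-0.61 ± 0.20) were lower in E19 on both arrays, and the tyrosine sulfotransferase Tpst1 was higher (0.53 ± 0.18), all under 2-fold.

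Proteases that can cut SLRPs had 2 of 9 detected genes called, both higher in E19: the collagenase gene Mmp13 (3.50 ± 0.10) and the stromelysin gene Mmp3 (3.27 ± 0.11). Bmp1, which trims the propeptide of biglycan, was not called (-0.49 ± 0.43), and the aggrecanase gene Adamts4 (0.48 ± 0.07) was also within 2-fold. Of 13 growth factor and receptor genes whose products SLRPs bind, only Tgfb2 was called, higher in E16 (-1.17 ± 0.03). The innate immune receptor gene Tlr2 (0.85 ± 0.40), Ccn4 (-0.61 ± 0.46) and the IGF receptor gene Igf1r (-0.35 ± 0.07) were not. These counts stand beside the shares of all genes, 4.15% towards E19 and 3.75% towards E16.

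In the authors' deposited table the 3 genes called higher in E16 were also the most shifted of the family: Epyc at -2.70, Fmod at -2.67 and Kera at -2.29 on the log2 scale. Dcn was at 1.38, Prelp at 0.62, Lum at 0.44, Bgn at -0.13 and Omd at -0.22 in the authors' deposited table. The table combines the same 2 arrays, so it is no separate measurement. Epyc and Fmod stood in the opposite order there.

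**Figure D5:**
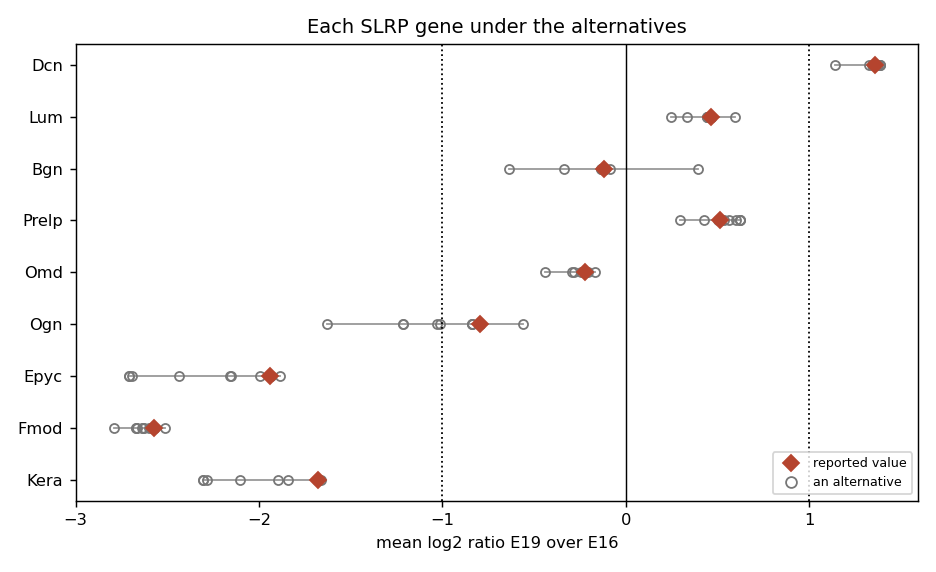
Mean log2 ratio of E19 over E16 of each SLRP gene as reported (diamonds) and under 15 alternatives of signal, background, normalisation, probe choice, single array or the authors' deposited table (open circles, some of which coincide with the reported value because the setting could not change it), with dotted lines at 2-fold. Fmod, Epyc and Kera stay beyond 2-fold towards E16, Ogn lies on both sides of the 2-fold line, and Bgn lies on both sides of 0.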

How the data were processed

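RNA was amplified linearly and labelled, per the labels' protocols. Skin RNA pools of E19 and E16 rat fetuses were compared on 2 dye-swapped Agilent arrays of 45018 spots. Per the file headers, Agilent Feature Extraction 9.5.1.1 measured each spot, and the deposited files give intensity without correction, background-subtracted and dye-normalised intensity, and the log10 ratio of Cy5 over Cy3. A log10 ratio combined over both arrays stands in the authors' deposited table and served as an alternative. Its p-value column, also from the authors' deposited table, was not used. The way the arrays were combined for it is not stated in any source used here. The direction of its ratio was taken as E19 over E16, since across probes the ratio correlated with the E19 over E16 ratios of the first array (r = 0.85) and of the second (r = 0.84), which was turned by its dyes.

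Mean intensities were background-corrected with normexp (offset 50) and normalised by loess within arrays, with control spots at weight 0 (limma 3.58.1, R 4.3.3; later steps Python 3.11.15). Levels were then set by Aquantile. Outlier spots were left out, ratios were turned to E19 over E16 by the labelled dyes, and the 2 arrays, which hold the same RNA, count as 1 replicate. The steps were tested on simulated arrays, where the changed spots were drawn only from middle levels. That test does not cover Dcn, Bgn, Lum and the brighter Ogn probe, which were brighter, or Omd, which was dimmer. A gene was detected when a probe was well above background in at least 1 pool on both arrays, and its brightest probe was used. All fold changes and ratios are log2 values computed here from the deposited intensity. Names were updated through RefSeq's GRCr8 gene table: 10811 of 41012 probes matched by accession, 5556 by symbol and 3715 by synonym, 3323 kept the file's name and 17607 had none.

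Every member is reported. From each list of related genes the text names up to 4 with the largest ratios in either direction, plus other SLRP genes. Members, tissue groups, lists and motifs were chosen with earlier results of these data known. The number of arrays limits the technical precision, and with 1 pool a stage the spread between animals is not measured. Both arrays were scanned together on 1 slide, so no batch could be tested.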

Additional observations from a re-analysis of the deposited data

How the results depend on the processing

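Of 15 alternatives that give ratios, 4 filter and flag settings could not change any member, and probe choice could change only Ogn, so 9 changed the values of each other member (8 with the processed signals and the LogRatio column, which nearly coincide, taken as 1). Fmod, Epyc and Kera kept their call towards E16 in these 9 and at 3-fold. Dcn kept its call in 8 of 9, not with median centring, and lost it at 3-fold. Ogn, not called as reported, was called higher in E16 under 4 alternatives. Of the member values, 52 were identical to the reported ones, 59 changed by less than the SD of the 2 arrays, and 24 by more. Of the called values, 0 changed sign. Leaving out an array always moves a mean by less than that SD, so those values could not count as more. The SD also differs by gene, between 0.01 for Kera and 0.73 for Bgn, so these counts do not measure stability. Epyc ranged between -2.71 and -1.89, Kera between -2.30 and -1.66, and Fmod between -2.79 and -2.51. No alternative gives the spread between animals, and signal over background limits Epyc, Kera and Omd most.

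The count of genes higher in E19 was 614 and in E16 554. Both the processed signals and the LogRatio column gave 1014 higher in E19 and 885 in E16. The authors' deposited table, which has 1 ratio for both arrays, gave 1202 and 999. A 1.5-fold size rule gave 1412 and 1138, and a 3-fold rule gave 178 and 230. The balance turned round at 3-fold, with median centring, to 367 higher in E19 and 439 in E16, and with spike-in RNAs at 0, which subtracts 0.22 from the ratios, to 376 and 801 (31.9% of calls higher in E19, against 52.6% as reported). Members higher in E19 fell to 0, against 1 as reported, with median centring and at 3-fold. Fold limits change counts by construction. For the other moves the cause was not tested.

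The skeletal median of -0.79 became -1.21 and the difference from the dermal median -1.68 when all probes of a gene were averaged, -1.21 and -1.65 in the authors' deposited table, -1.63 and -2.10 with the other Ogn probe (chosen after seeing the data), and -1.24 and -1.70 with Kera as skeletal. The dermal median of 0.46 became 0.25 with spike-in RNAs at 0 and 0.17 with Ogn as dermal. The sign of the difference was the same under each of these.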
